A study of Mus musculus with 27 samples.

Results

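Mouse embryonic stem cells (mESCs) that had received 2i medium for 48 h were compared between 2 separate cultures. Per the paper, the cells were routinely kept in ESLIF medium before this pulse. Cells were collected in 2i at the end of the 48 h (condition 3), or after a further 48 h in ESLIF medium (condition 5). All cells listed for the plates labelled with these conditions were taken, which gave 709 cells of condition 3 and 722 cells of condition 5, together 1431 of the 4147 mESCs of the series. Condition 3 was held as 364 cells on plate 1 and 345 cells on plate 2, and condition 5 as 365 and 357 cells. The cells came from 1 mouse line, B6, in which the 129S1/SvImJ and C57BL/6 backgrounds are combined. ESLIF contains serum and leukaemia inhibitory factor (LIF), and 2i contains LIF with the GSK3 inhibitor CHIR99021 and a MEK inhibitor. Single cells stained with DAPI, a dye that marks dead cells, were sorted into plates with 384 wells and sequenced with CEL-seq2, in which each transcript carries a well barcode and a molecular identifier.

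Each condition was 1 culture, and its 2 plates were technical replicates of 1 cell suspension. No test between conditions 3 and 5 was therefore possible, and plate differences measure technical spread. The cultures were parallel, so the cells of condition 3 were not the parents of those of condition 5. The medium at collection and the time since the 2i pulse changed together and cannot be told apart. In what follows, a difference is called separated where both plates of one condition lay on the same side of both plates of the other and the difference was larger than the larger gap between plates of 1 condition. Intervals of shares are exact 95% binomial intervals, intervals of differences between shares are Newcombe intervals, and both cover counting error only.

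Pluripotency in culture is held by opposing signals. MEK inhibition blocks the FGF and ERK signal that moves cells toward lineage commitment, and GSK3 inhibition mimics Wnt signalling, so that 2i keeps mESCs near the state of the pre-implantation epiblast. Serum leaves the ERK signal active, and mESCs in serum with LIF are more varied and nearer to primed pluripotency, the state of the later epiblast from which the germ layers arise. mESCs divide fast with a short G1 phase, and a large part of the cells is found in S phase, when DNA is copied, or in G2 and mitosis.

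The series holds 12 mESC plates of 6 conditions, with 8696308 to 33458578 reads per plate. The other conditions were ESLIF only (condition 1), 96 h of 2i (condition 2), the last 24 h in 2i (condition 4), and 24 h of 2i followed by 24 h of ESLIF (condition 6). The plates of condition 3 had 26111770 and 33458578 reads, and those of condition 5 had 33416237 and 30832460. Well barcodes are shared by design, and 307 wells held a listed cell on all 4 plates of conditions 3 and 5. No gene-level values were used, so the state names below are those of the authors and were not checked against markers, and doublets were not called.

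The 2 conditions shared almost none of their annotated states. In condition 3, Naive Pluripotency held 77.2% of the cells, with 82.7% on plate 1 and 71.3% on plate 2. In condition 5, Primed Pluripotency held 97.5%, with 98.4% and 96.6%. No cell of condition 5 was called Naive, 0 of 722 cells, which allows a share of up to 0.416% as the share of 3 cells and 0.510% as the upper bound of the exact interval. The difference in the Primed share was 96.7 percentage points (interval 94.9 to 97.7) and in the Naive share -77.2 points (interval -80.1 to -73.9), and both were separated.

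The remaining cells of condition 3 were mostly in 2 further pluripotent states. Ground State Pluripotency, the main state of condition 2, took 8.24% of plate 1 and 16.8% of plate 2, or 12.4% of the condition. Epiblast-like cells took 7.42% and 8.12%, or 7.76% of the condition. Over all depths, the Epiblast-like share differed little between the plates, whereas the Naive and Ground State shares differed by 11.4 and 8.57 points. In condition 5, Ground State was called in 1 cell and Epiblast-like in none of 722, so that both shares were lower than on either plate of condition 3, and separated.

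**Figure D1:**
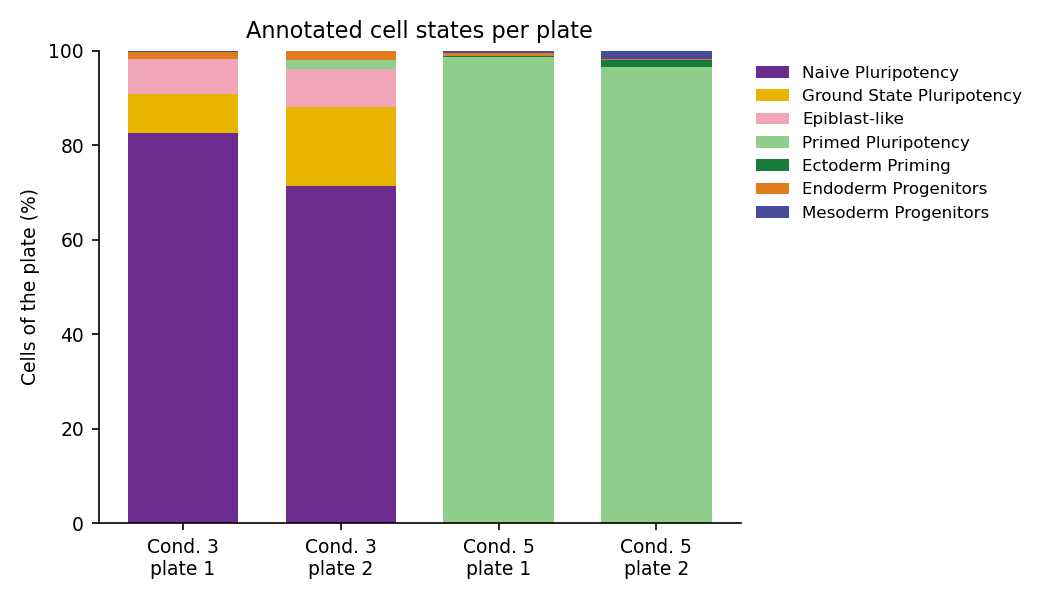
Share of each annotated cell state (y axis, % of the cells of the plate) on the 4 plates of conditions 3 and 5 (x axis), as stacked bars. Naive Pluripotency fills 82.7% and 71.3% of the condition 3 plates, and Primed Pluripotency fills 98.4% and 96.6% of the condition 5 plates.

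The Ground State share of condition 3 was highest among shallow cells, a pattern carried by plate 2. Among cells of condition 3 with fewer than 2000 counts, 51.1% (23 of 45) were Ground State and 13.3% were Naive. Among cells with 5000 to 10000 counts, 6.44% were Ground State and 86.2% Naive, and among cells with 10000 counts and over these shares were 10.1% and 81.5%. Of the 45 cells under 2000 counts, 40 were on plate 2. On plate 2 the Ground State share was 52.5% under 2000 counts, 14 of 35 cells from 2000 to 5000, 8.89% from 5000 to 10000 and 8.15% from 10000 counts. On plate 1 it was 2 of 5 cells, 9.23%, 4.71% and 12.6% in the same classes, with no steady fall from 2000 counts up. The Epiblast-like share of condition 3 was also highest under 2000 counts, at 22.2%, against 5.83% from 5000 to 10000 and 6.72% from 10000 counts. Under 2000 counts, 0 of 5 cells on plate 1 and 10 of 40 on plate 2 were Epiblast-like. On plates 1 and 2 in turn, this share was 7.33% and 3.70% from 5000 to 10000 counts, and 6.80% and 6.67% from 10000 counts. Median counts of Ground State cells were 6905 on plate 1 and 3122.5 on plate 2, against 7528 and 9569 for Naive cells. What part shallow cells had in the shares by plate was not tested.

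Depth moved the makeup of condition 5 less. Primed Pluripotency held 93.0% (40 of 43) of its cells under 2000 counts and 98.2% (492 of 501) of those with 10000 counts and over. The 7 cells that carried the main state of the other medium were shallow. In condition 3, 6 cells were Primed, all on plate 2, with counts from 460 to 3041 and a median of 792.5. In condition 5, the 1 Ground State cell had 460 counts. No such cell reached 5000 counts in either condition.

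Few cells carried a name outside the pluripotent states. Ectoderm Priming, which held 92.1% of the ESLIF-only condition 1, was called in none of the 709 cells of condition 3, which allows up to 0.423% as the share of 3 cells and 0.519% by the exact interval, and in 6 cells of condition 5, 1 on plate 1 and 5 on plate 2. Endoderm Progenitors were 12 cells in condition 3 (5 and 7 by plate) and 3 in condition 5 (2 and 1), a difference of -1.28 points (interval -2.55 to -0.200) that was separated. Their share went the other way from condition 4 to condition 6, at 1.10% and 1.50%, where the plates overlapped. Mesoderm Progenitors were 1 and 8 cells, and the median mitochondrial percentage of those 8 cells was 0.545%, against 4.69% in the Primed cells. The differences in Ectoderm Priming and Mesoderm Progenitors did not exceed the gap between plates.

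The deposited UMAP, a 2-dimensional map on which cells with similar transcriptomes lie close together, placed the conditions apart. The median position of condition 3 was 10.2 and -0.773 on the 2 axes for plate 1 and 10.2 and -0.403 for plate 2. That of condition 5 was 10.6 and 9.64 for plate 1 and 9.98 and 9.90 for plate 2. The plates of 1 condition lay 0.375 units apart in condition 3 and 0.688 units in condition 5, while plates of different conditions lay 10.1 to 10.7 units apart. Distances on a UMAP have no fixed scale, so neighbours were also counted.

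**Figure D2:**
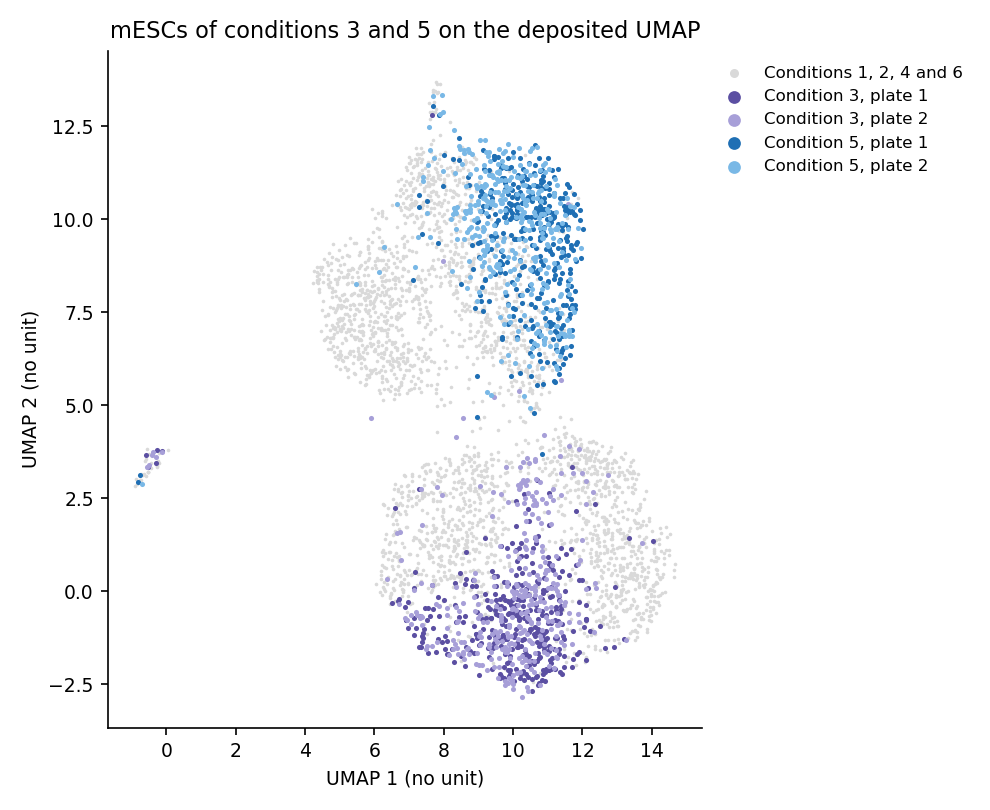
Each point is 1 mESC on the 2 axes of the deposited UMAP (no unit), coloured by plate for conditions 3 and 5 and grey for the other conditions. Median positions on the second axis were -0.773 and -0.403 for the plates of condition 3 and 9.64 and 9.90 for those of condition 5.

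Among the 15 nearest neighbours of each cell of condition 3, 76.9% were of condition 3 itself, 11.2% of condition 4, 10.3% of condition 2 and 0.367% of condition 5. Among those of condition 5, 72.4% were of condition 5, 23.8% of condition 6, 2.72% of condition 1 and 0.332% of condition 3. A draw from all listed mESCs would give 17.1% for condition 3 and 17.4% for condition 5. Cells that had returned to ESLIF were thus placed beside the other returned culture more often than beside ESLIF-only cells, and almost never beside cells collected in 2i.

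The neighbourhood of condition 3 followed the annotated state. Naive cells had 88.5% of their neighbours within condition 3, and none in conditions 5 or 6. Ground State cells had 46.4% of theirs within condition 3 and 44.8% in condition 2. Epiblast-like cells had 30.1% within condition 3 and 68.2% in condition 4. The state calls and the map were made from the same values, so this is a description of the map. In condition 5, Primed cells had 73.9% of their neighbours within condition 5 and 23.9% in condition 6, and the 6 Ectoderm Priming cells had 81.1% in condition 1.

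Cells beside the other medium were 40 in condition 3 (5.64%) and 49 in condition 5 (6.79%), counting each cell with at least 1 neighbour collected in the other medium. The 40 cells of condition 3 had a median of 4330.5 counts against 8173 for its other cells. The 49 cells of condition 5 had 10600 against 12318. In both conditions the cells counted in this way had lower median counts than the rest. Progenitor cells, whose neighbours came from both media, are among them.

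More counts and genes were listed for the cells returned to ESLIF. Whether the deposited counts include mitochondrial and ribosomal reads is not given in the sources used here. Median counts per cell were 7400 and 8763 in condition 3, plate 1 and plate 2 in turn, and 12660 and 11872 in condition 5, a difference of 4184.5. Median genes per cell were 3720 and 4018 against 4980 and 4779, a difference of 1010.5. Both differences were separated and larger than the gaps between plates of 1363 counts and 298 genes. The reads per plate overlapped between the conditions, and 1000 reads gave 117 and 89.3 counts in condition 3 and 143 and 142 in condition 5. Whether the counts reflect RNA content or recovery was not tested.

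The mitochondrial percentage, the share of reads from the mitochondrial genome, was slightly lower after the return. Its median was 5.34% and 5.14% in condition 3 and 4.50% and 4.86% in condition 5, a separated difference of -0.559 points with a gap between plates of 0.357 points. By the mean over cells the plates overlapped, at 5.35% and 5.21% in condition 3 and 4.84% and 5.29% in condition 5. Cells above 20% were 2 in condition 3 and 7 in condition 5.

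**Figure D3:**
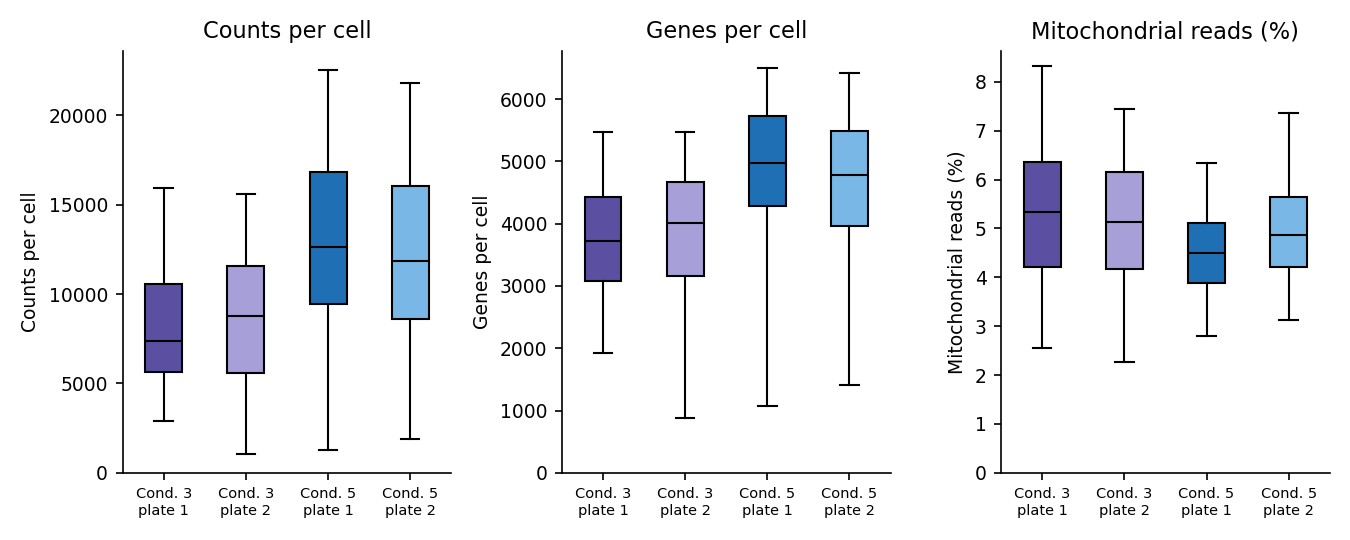
Counts, genes and mitochondrial reads (%) per cell on the 4 plates, with boxes from the lower to the upper quartile, a line at the median and whiskers from the 5th to the 95th percentile. Median counts are 7400 and 8763 in condition 3 and 12660 and 11872 in condition 5, while the boxes of the mitochondrial percentage overlap.

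The shares of cells in each phase of the cell cycle were close in the 2 conditions. The deposited phase is the larger of an S score and a G2M score, summaries of genes used in S phase and in G2 and mitosis, and G1 where both are below 0. S phase was called in 53.3% and 54.8% of the cells by plate in condition 3, against 56.7% and 54.6% in condition 5. The plates overlapped, and the difference was 1.66 points, with a lower interval bound of -3.49 points and an upper one of 6.796 points. G2M was called in 45.6% and 44.1% against 42.7% and 44.8%, a difference of -1.08 points (interval -6.22 to 4.05) that also lay within the spread between plates.

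Few cells were called in G1, a call that needs both scores below 0. They were 4 on each plate of condition 3 and 2 on each plate of condition 5, or 1.13% and 0.554%. The difference of -0.574 points was separated, but its counting interval ran from -1.71 to 0.451. The scores of many cells were near the border of a call, since they lay within 0.01 of each other in 71 cells of condition 3 and 89 of condition 5.

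The scores themselves were higher after the return. The mean S score was 0.0475 and 0.0499 by plate in condition 3, against 0.0569 and 0.0584 in condition 5. The mean G2M score was 0.0465 and 0.0472 against 0.0526 and 0.0537. Both differences, 0.00894 for S and 0.00635 for G2M, were separated. Fewer cells had scores below 0 in condition 5, with 7 against 29 for S and 20 against 85 for G2M. The genes behind the scores are not given in the sources used here.

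**Figure D4:**
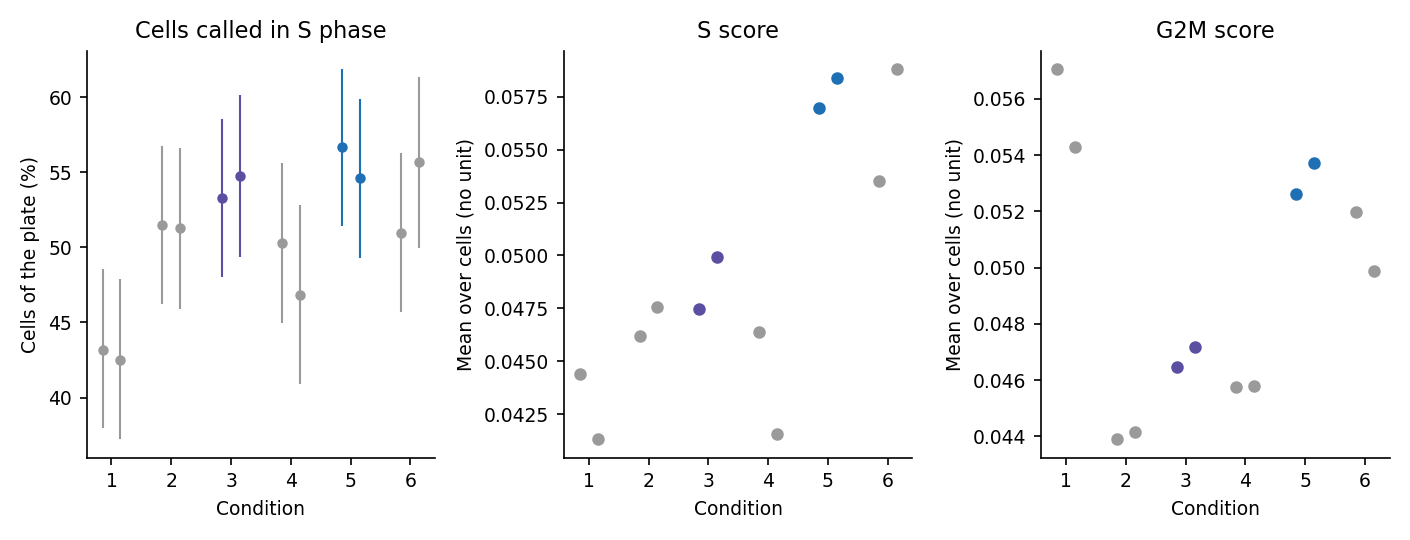
Share of cells called in S phase (left, %, with exact 95% binomial intervals), mean S score (middle) and mean G2M score (right) for each of the 12 plates by condition, with conditions 3 and 5 coloured and axes that do not start at 0. The S-phase shares of conditions 3 and 5 overlap, from 53.3% to 56.7%, while both scores are higher on both plates of condition 5.

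Counts per cell differed between the conditions and moved with the phase, so the values are also given within 5 classes of counts that held equal numbers of the 1431 cells. In condition 3 the S-phase share was 58.6% in the lowest class, up to 6032 counts, and 20.4% in the highest, from 14936 counts. In condition 5 it was 61.4% and 36.5%. In both conditions the deepest cells were least often called in S phase. The highest class held 54 cells of condition 3 and 233 of condition 5.

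Within classes the S-phase share was higher in condition 5 in 5 of 5, by 2.78 to 16.1 points and by 10.96 on average, where the pooled difference was 1.66. In the class of 8780 to 11568 counts it was 42.9% and 64.7% by plate in condition 3, against 68.6% and 69.1% in condition 5. Both plates of condition 5 lay above both of condition 3 in 4 of the classes, but the difference exceeded the gap between plates in only 2 of them. The G2M share was lower in condition 5 in 5 of 5 classes, by 10.8 points on average. A different phase makeup cannot be told apart here from the matching on counts. The S-phase share was lowest among the deepest cells of each condition, and counts were higher in condition 5. Equal counts thus set the shallower cells of condition 5 against the deeper cells of condition 3. What part this matching had in the differences was not tested.

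The 2 scores parted within the classes, which are matched on counts with the same limit. The mean S score was higher in condition 5 in 5 of 5 classes, by 0.0103 on average, and the difference was separated in each. In the highest class it was 0.0411 and 0.0396 by plate in condition 3, against 0.0519 and 0.0513 in condition 5. The mean G2M score was higher in 2 classes and lower in 3, by -0.00249 on average, and separated in none. Within each plate the rank correlation of counts with the G2M score over cells was 0.255 to 0.338, and with the S score -0.152 to 0.0562. The values share the same reads, so these correlations are descriptions.

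**Figure D5:**
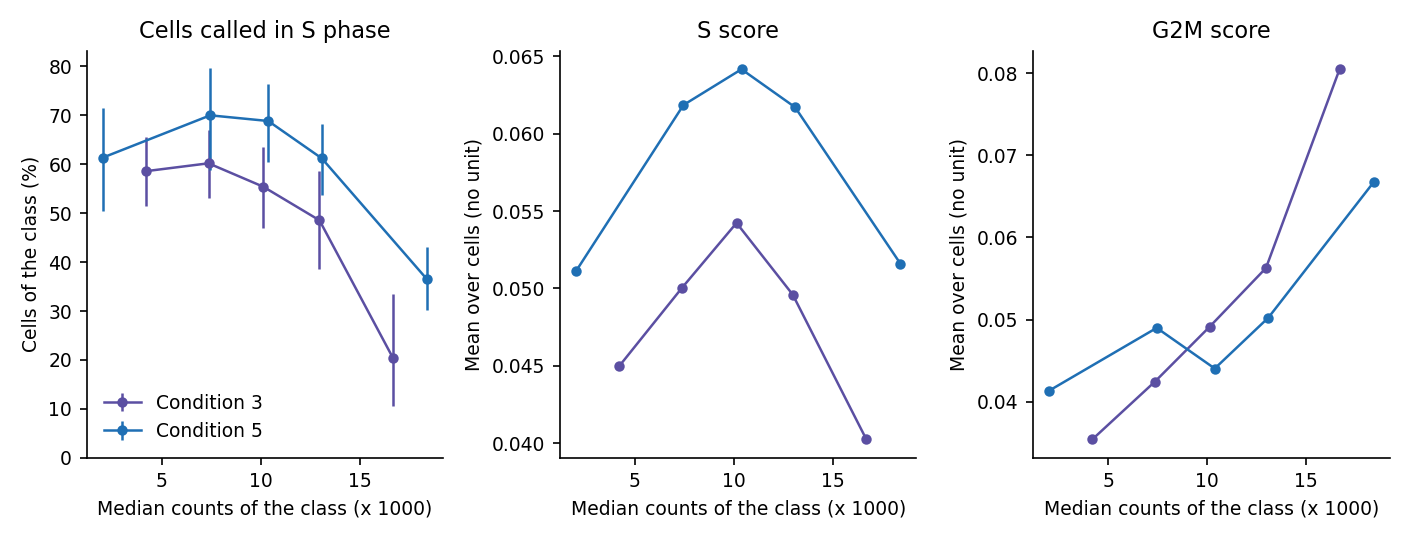
S-phase share (left, %, with exact 95% binomial intervals), mean S score (middle) and mean G2M score (right) in 5 classes of counts per cell, plotted at the median counts of the class divided by 1000, for conditions 3 and 5. The S score of condition 5 is higher in each class, while the lines of the G2M score cross, and the axes of the scores do not start at 0.

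The lowest class was not matched well, with median counts of 4206.5 in condition 3 and 2034.5 in condition 5, and the highest class had 16682.5 and 18397. In 10 classes of 1000 counts from 5000 to 15000 counts, a choice made after seeing the data, the S-phase share was higher in condition 5 in 8 of 10 classes and by 8.30 points on average, a value that carries the same limit and is no separate support. The S score was higher in 10 of 10, by 0.00981. Genes per cell, which differed by 1010.5 over all cells, differed by 76.3 at matched counts and were higher in condition 5 in 10 of 10 classes. The mitochondrial percentage was lower in 10 of 10, by -0.461 points. These 10 classes pool the plates of a condition. By plate, in the 5 classes of equal size, both plates of condition 5 had more genes than both of condition 3 in only 2. Likewise, the mitochondrial percentage was lower on both plates of condition 5 in only 2 of those 5.

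S-phase shares also varied between states. In condition 3 they were 56.3% (interval 52.0 to 60.5) for Naive, 56.4% (42.3 to 69.7) for Epiblast-like and 42.0% (31.6 to 53.0) for Ground State cells. By plate, 12 of 30 and 25 of 58 Ground State cells were in S phase, against 166 of 301 and 142 of 246 Naive cells. The Primed cells of condition 5 fell into 2 clusters of the authors. The larger, with 537 cells, had 58.4% and 58.1% in S phase by plate and a median of 12023 counts. The smaller, with 167 cells, had 49 of 92 and 30 of 75 cells in S phase by plate and a median of 17037 counts. Counts in the smaller cluster were spread widely, with a lower quartile of 4449.5 against 9463 in the larger, and 5.39% against 2.05% of cells under 1000 counts. Ground State cells had lower mean counts than Naive cells on plate 2 (5218 against 9914) and higher ones on plate 1 (8954 against 8305). Their median counts were lower on both plates, at 6905 against 7528 on plate 1 and 3122.5 against 9569 on plate 2. The part of depth was not tested.

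The return after a shorter pulse gave a second pair, condition 6 minus condition 4, with 24 h in place of 48 h in each medium. The Primed share differed by 95.3 points, from 0.847% and 0.704% on the plates of condition 4 to 96.1% and 96.1% on those of condition 6. The S score was 0.0464 and 0.0416 by plate in condition 4, against 0.0535 and 0.0588 in condition 6, a difference of 0.0122. The G2M score differed by 0.00518. Both scores were thus higher after the return in both pairs, on every plate. Counts did not separate in the shorter pair, at 11880 and 7965 against 13669 and 7640. Mitochondrial percentages did not separate there either, since the difference of -0.471 points was smaller than the gap between the plates of condition 6, at 4.93% and 5.43%. The starting states were different, since condition 4 was 85.3% Epiblast-like, and the difference between the pairs was not tested.

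Across all 6 conditions, the ones collected in ESLIF were set against the ones collected in 2i, with 1 value per condition. An exact two-sided permutation test of 3 against 3 conditions cannot go below p = 0.1. The mean G2M score was 0.0533 ± 0.00237 (SD, n = 3) in ESLIF and 0.0455 ± 0.00140 (SD, n = 3) in 2i, with exact p = 0.1 and 0.25 after Benjamini-Hochberg adjustment over 5 measures. The S score was 0.0522 ± 0.00814 (SD, n = 3) and 0.0465 ± 0.00239 (SD, n = 3), with exact p = 0.4 and 0.667 after adjustment. The S-phase share gave exact p = 0.9, with a difference of -0.833 points. The S score of condition 5, at 0.0577, was the highest of the 6 conditions, with plates that lay within the range of those of condition 6, and that of condition 1, also in ESLIF, was the lowest at 0.0429.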

How the data were processed

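Per the labels and the study's methods, the authors demultiplexed the CEL-seq2 reads by plate and well, trimmed them with cutadapt 4.1, mapped them with STAR 2.5.3a to a mouse genome of build GRCm38 with strain differences masked, counted them per gene with featureCounts and collapsed duplicates. The submitters' processing notes also name SAMtools 1.15.1. In Scanpy the authors removed cells with under 500 reads, under 100 genes or over 40% mitochondrial reads, normalised to 500 transcripts per cell, regressed out counts, mitochondrial percentage and phase, and made the UMAP from 30 principal components and clusters with the Leiden algorithm at resolution 0.5. The deposited count and number of genes of a cell are whole numbers and were not normalised. Listed cells under 500 counts were 5 in condition 3 and 3 in condition 5, and whether the counts leave out mitochondrial and ribosomal reads is not given in the sources used here. The mitochondrial value deposited by the authors is a fraction, which was multiplied to percent. Both cell cycle scores are the authors' own: the deposited S score and G2M score carry no unit. The deposited count of reads per plate comes from a demultiplexing report, in which 3 libraries match no sample and were not used. State names, clusters and UMAP positions are the authors'. The deposited names of 3 states were replaced by those of the paper with equal cell numbers. The gastruloid cells were not analysed here.

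Medians and means were computed per plate and averaged over the 2 plates of a condition, and shares were pooled over plates. Neighbours were the 15 nearest cells on the UMAP. Cells were not thinned to equal depth, because no gene-level counts were used. Differences between conditions 3 and 5 have no test. Conditions were compared by medium with an exact permutation test. Python 3.11.15, pandas 2.3.3, scipy 1.17.1 and scikit-learn 1.9.0 were used. The conditions, measures and alternatives were chosen with earlier results of these data known. Alternatives were each plate left out, at least 1000 counts, at most 20% mitochondrial reads, progenitor states left out, means and medians exchanged, 5 and 50 neighbours, the own plate left out and 5 classes of counts. Classes of 1000 counts and a minimum of 5000 counts were chosen after seeing the data.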

Additional observations from a re-analysis of the deposited data

Results flagged for a closer look

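Among the phase shares, scores and quality measures, the direction of 2 differed between 2 pairs of conditions. These pairs were conditions 5 and 3, and conditions 1 (ESLIF only) and 2 (96 h of 2i). The mean S score differed by 0.00894 between conditions 5 and 3, with both plates of condition 5 higher, and by -0.00401 between conditions 1 and 2, with both plates of condition 1 lower. Median genes per cell differed by 1010.5 and by -343.5, again with every plate on the opposite side, but the second difference was smaller than the gap between the plates of condition 2, at 3708 and 4086 genes. Both were noticed because every plate moved one way in the first pair and the opposite way in the second. Among the state shares, that of Endoderm Progenitors also turned, at -1.28 points and 0.729 points, with every plate on the opposite side and few cells. The difference between the pairs was not tested, since each condition was 1 culture.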

How the results depend on the processing

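The directions of the differences in counts, in state shares and in the mitochondrial percentage held under every alternative run, and so did those in the S score and the S-phase share. Signs turned in classes of counts only, while values also moved when a plate was left out or means and medians were exchanged. In 5 classes of counts, condition 5 minus condition 3 was 10.96 points for the S-phase share, -10.8 for the G2M share, -0.00249 for the G2M score and -69.5 for genes, the last 2 with the sign turned. The lowest class has unequal median counts, and counts moved with the phase. A different phase makeup thus cannot be told apart from the matching on counts. In classes of 1000 counts these values were 8.30, -8.45, -0.000322 and 76.3, and the G1 share was 0.151 points, again with the sign turned. The median S score over cells gave 0.0110, and the mean mitochondrial percentage -0.216. With at least 5000 counts per cell, the Naive share differed by -84.2 points, the Primed share by 98.0 and the Ground State share by -7.98.

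Leaving out 1 plate at a time gave 0.602 to 2.69 points for the S-phase share, -2.11 to -0.0340 for G2M and -0.605 to -0.545 for G1. It gave 0.00771 to 0.0102 for the S score, 0.00580 to 0.00690 for the G2M score, 3503 to 4866 counts, 861.5 to 1159.5 genes and -0.737 to -0.380 points of mitochondrial reads. The Naive share gave -82.7 (without plate 2 of condition 3) to -71.3 (without plate 1), and Primed 95.8 to 97.5. The Ground State share gave -16.7 to -8.10. Neighbours of condition 5 in condition 3 were 0.0462% without plate 2 of condition 3 and 0.566% without plate 2 of condition 5, and those of condition 3 in condition 5 were 0.110% to 0.638%.

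The exact p of the 5 comparisons by medium ranged from 0.1 to 1 over the alternatives, and the smallest possible is 0.1. The phase recomputed from the scores was the same in all 4147 cells. No paired analysis was possible because the replicate numbers name technical plates of separate cultures and the differences between conditions 3 and 5 come from no test. With 1 culture per condition, differences between cultures cannot be told apart from those between media.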
